A study of Mus musculus with 12 samples.

Results

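The clustered protocadherins were examined in 2 lists of pan-lysine-crotonylation (pan-Kcr) peaks from mouse dorsal hippocampus. Members were the protein-coding RefSeq genes on chromosome 18 of GRCm38 whose symbols start with Pcdha, Pcdhb or Pcdhg. The rule found 57 of 21887 protein-coding genes, with 14 in the alpha cluster, 22 in the beta cluster and 21 in the gamma cluster. The alpha cluster runs from 36930285 to 37188897 (258.6 kb), the beta cluster from 37264998 to 37521419 (256.4 kb) and the gamma cluster from 37661775 to 37841873 (180.1 kb).

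Crotonylation is an acylation of lysine that includes histone lysines, and the study asks where it is detected on hippocampal chromatin with and without spatial training. Chromatin was taken from dorsal hippocampus of C57BL/6J mice that had been trained to recognise displaced objects, a spatial object recognition task (learning), or had stayed in the home cage (homecage). The labels give no age, sex or number of animals for these libraries, and no treatment other than housing or training. Each condition had 1 antibody library, so the lists were compared without replicates or p-values, and each value is a property of these 2 lists. The files give each peak's position and no strength, and the read depth is unknown. Intervals below are exact 95% intervals for counting error only, which treat ends, genes or peaks as independent. Neighbours in a cluster are not independent.

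Clustered protocadherins are cadherin-like adhesion proteins of the neuronal surface that bind the same isoform on another cell. In the alpha and gamma clusters, each gene has its own promoter and a large variable exon, which is spliced to constant exons that all genes of that cluster share. Beta genes are made of a single large exon and have no shared exons. A neuron transcribes only some of the isoforms, chosen with the help of CTCF and cohesin, and the combination lets its branches tell self from other neurons. Peaks from tissue sum over many neurons, so a mark present on many cells at a low level cannot be told apart from one present on a few cells.

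The gene table gives no strand, so the ends of a gene are called the lower and the upper end, by coordinate. In the alpha and gamma clusters, the lower ends are unshared and carry the variable exons. The upper end is common to 13 alpha genes, with that of Pcdha6 lying apart, and to all 21 gamma genes. Ends within 50 bp of each other were counted once, which left 82 distinct ends, with 16 in the alpha, 44 in the beta and 22 in the gamma cluster. A peak was at a gene end if any part of it lay within 1 kb. The members resemble each other in sequence, so that reads can fit more than 1 of them, and how such reads were handled is not given in the sources used here. Single-gene values are uncertain for that reason.

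No learning peak was detected at any protocadherin gene end. The count was 0 of 57 genes, against 15.6% of all protein-coding genes with a learning peak at either end. It was 0 of 16 distinct ends in the alpha cluster (95% interval 0 to 20.6%), 0 of 44 in the beta cluster (0 to 8.04%) and 0 of 22 in the gamma cluster (0 to 15.4%). Over the 82 distinct ends together the interval reached 4.40%, and the share over the distinct ends of all protein-coding genes was 8.02%. Chromosome 18 as a whole was close to the genome in this list, with a peak at 15.7% of its 511 protein-coding genes.

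The learning list placed 3 peaks between the lower end of Pcdha1 and the upper end of the gamma cluster. One lay in the beta cluster, at 37418546 to 37419076 (531 bp), between Pcdhb10 and Pcdhb11 and 2342 bp below the lower end of Pcdhb11. Another lay at 37577407 to 37577632 (226 bp), between the beta and gamma clusters and 55988 bp from the nearest member. The last lay at 37835591 to 37835748 (158 bp), inside all 21 nested gamma genes and 6115 bp from their upper ends, on the side where the constant exons lie. None of the 3 overlapped a homecage peak, and the nearest homecage peaks were 2842, 6700 and 539 bp away. Over the whole list, 43.1% of learning peaks overlapped a homecage peak.

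No learning peak was detected over the alpha cluster. It lay in a stretch of 739 kb without a learning peak, from 36679080 to 37418545, which also took in the lower ends of 10 beta genes and so held 24 member lower ends in all. Absence over a stretch of the length of 1 cluster was common in this list, since 31.0% of 9604 autosomal tiles of 250 kb, and 37.4% of those on chromosome 18, held no learning peak. The density over the whole locus was 3.29 learning peaks per Mb (95% interval 0.679 to 9.62), against 5 on chromosome 18 and 6.59 on the autosomes. The nearest learning peak to a member's lower end was at a median of 98165 bp, compared with 44680 bp over all autosomal protein-coding genes. The map of the locus shows these 3 learning peaks under the homecage peaks.

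**Figure D1:**
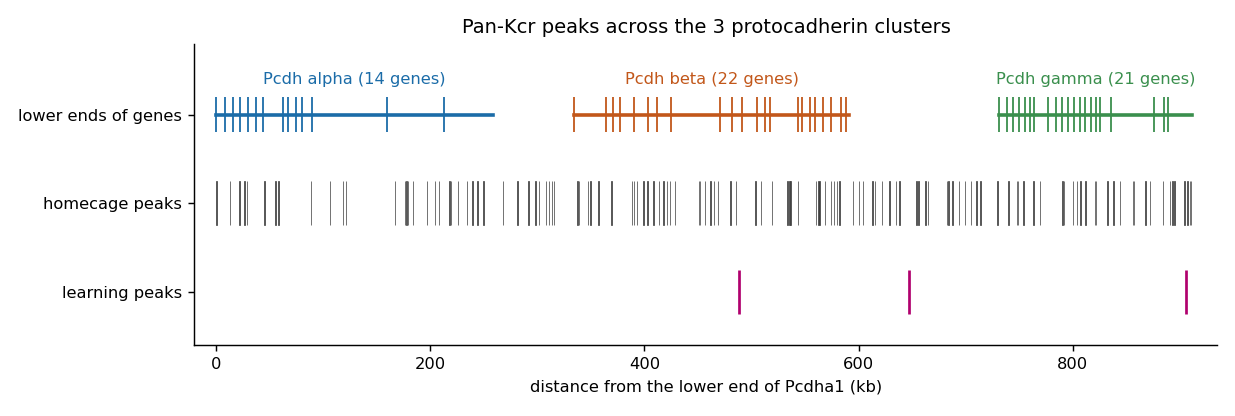
Positions of the lower ends of the 57 members (top), the homecage peaks (middle) and the learning peaks (bottom), in kb from the lower end of Pcdha1. The 126 homecage peaks lie along the whole locus, and the 3 learning peaks lie at 488.5, 647.2 and 905.4 kb, away from the member ends.

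In the homecage list, 28 of the 82 distinct ends had a peak (34.1%, 95% interval 24.0 to 45.4%), and the share over all protein-coding genes was 38.6%. The alpha cluster had 4 of 16 (25%, 7.27 to 52.4%), the beta cluster 14 of 44 (31.8%, 18.6 to 47.6%) and the gamma cluster 10 of 22 (45.5%, 24.4 to 67.8%). The 3 intervals overlap and each includes the share over all genes, so the order alpha, beta, gamma is within counting error. Counted by gene, 4 alpha, 11 beta and 21 gamma genes had a homecage peak at either end. That makes 36 of 57, or 63.2%, against 60.9% of all protein-coding genes and 64.6% of those on chromosome 18. Of the distinct ends on chromosome 18, 39.4% had one. The shares over all genes include X and Y, which hold few homecage peaks, since 329508 of 331236 were autosomal. The gamma count rests on 1 peak at the shared upper end, which alone accounts for 12 of the 21 genes. Windows of 500 bp left 14 of 57 members with a homecage peak (24.6%), against 48.8% of all protein-coding genes, and 16 of the 82 distinct ends (19.5%), against 28.3%. No peak lay within 500 bp of the shared alpha or gamma upper end, which counts against many nested genes at once. The gene share is therefore not matched to that of all genes. No interval was computed for these shares, so no deficit is read from them.

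**Figure D2:**
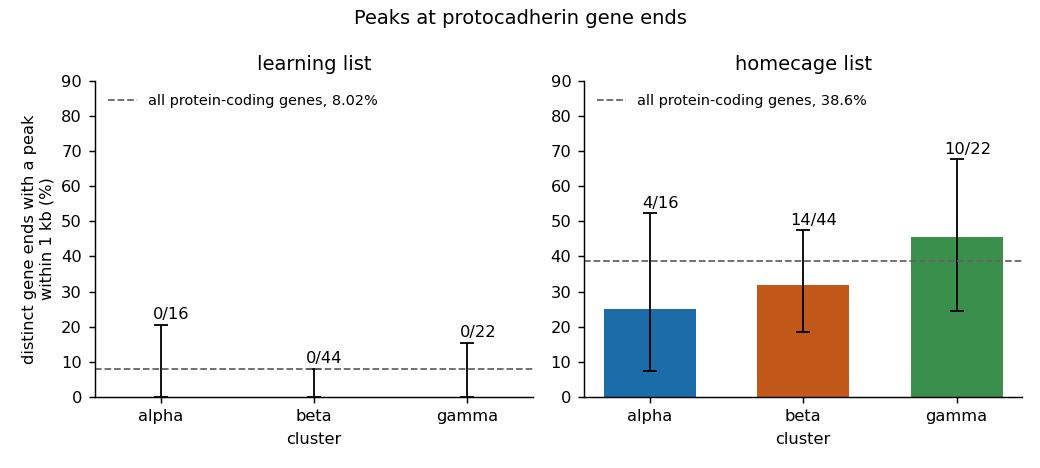
Percent of distinct gene ends with a peak within 1 kb, by cluster, in the learning list (left) and the homecage list (right). Bars are shares, error bars are exact 95% intervals for counting error, numbers are ends with a peak over ends, and dashed lines are the shares over all protein-coding genes. All learning bars are at 0, and the homecage intervals of the 3 clusters overlap.

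The lower ends of all members can be compared without the shared end. A homecage peak was present at 4 of 14 alpha (28.6%, 95% interval 8.39 to 58.1%), 8 of 22 beta (36.4%, 17.2 to 59.3%) and 9 of 21 gamma lower ends (42.9%, 21.8 to 66.0%). In all, 21 of 57 had one (36.8%, 24.4 to 50.7%), near the 38.8% of lower ends of all protein-coding genes. In the learning list, 0 of 57 had one, against 8.04% of all genes. Both shares over all genes mix lower ends that are starts with lower ends that are 3' ends, so neither is a matched reference. The distance from a lower end to its nearest homecage peak had a median of 3496 bp in the alpha, 1573.5 bp in the beta and 1210 bp in the gamma cluster, compared with 1563 bp over autosomal protein-coding genes. Near the 1 kb limit, Pcdhb10, Pcdhb8 and Pcdhb3 lay just inside at 897, 924 and 929 bp. Just outside it were Pcdhga2 at 1023, Pcdhb21 at 1197 and Pcdhgc5 at 1210 bp.

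**Figure D3:**
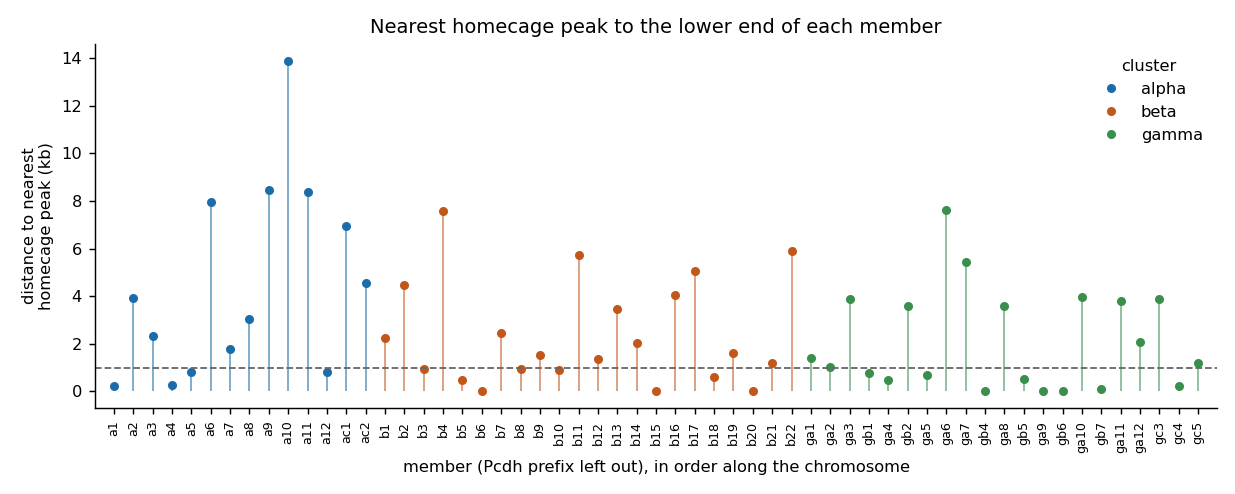
Distance in kb from the lower end of each member to its nearest homecage peak, with members in chromosome order and coloured by cluster; the dashed line marks 1 kb. The longest distance is at Pcdha10 (13903 bp), and Pcdhb15, Pcdhgb4, Pcdhga9 and Pcdhgb6 are at 0 because a peak spans the end.

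Among the alpha genes, Pcdha1, Pcdha4, Pcdha5 and Pcdha12 had a homecage peak at the lower end. The widest was at Pcdha1 (36930532 to 36930970, 439 bp), inside the gene and 247 bp from its end. The peak at Pcdha5 (36959071 to 36959453, 383 bp) lay 823 bp outside the gene, and that at Pcdha4 (36952086 to 36952437, 352 bp) lay 252 bp outside. The peak at Pcdha12 (37019223 to 37019407, 185 bp) lay 823 bp outside. The other 10 alpha genes, Pcdha2, Pcdha3, Pcdha6 to Pcdha11, Pcdhac1 and Pcdhac2, had none at either end. Of these, Pcdha8, Pcdha9, Pcdha10 and Pcdha11 lie in a row in a stretch of 29.8 kb without a homecage peak, and the lower end of Pcdha10 was the farthest of all member lower ends from a homecage peak, at 13903 bp. The shared upper end of the alpha genes had no peak in either list, and its nearest homecage peak was 7158 bp away.

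Peaks were nevertheless present within the alpha cluster, where 27 homecage peaks were counted once each. The 12 peaks from Pcdha1 to Pcdhac1, a part of 160 kb that holds the 12 numbered variable exons, gave 75.1 per Mb (95% interval 38.8 to 131). From Pcdhac1 to the upper end, the 15 peaks in 98.8 kb gave 152 per Mb (85.0 to 251). This split was chosen after the peaks were seen, and the intervals overlap. The widest alpha peak was 1085 bp (37107636 to 37108720), between the lower ends of Pcdhac1 and Pcdhac2. The longest stretch without a homecage peak, 45.2 kb, held the lower end of Pcdhac1, and 99% of such stretches on the autosomes were shorter than 32.4 kb. It was picked as the longest of the cluster's stretches, so this percentile of single stretches does not say how unusual it is.

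Beta genes had a homecage peak at the lower end alone in 5 cases, at the upper end alone in 3 and at both ends in 3, and 11 had none at either end. The widest peak at a beta end spanned the upper end of Pcdhb1 (37267240 to 37268303, 1064 bp). The next in width lay inside Pcdhb18, 684 bp from its upper end (37492844 to 37493819, 976 bp). The third lay 25 bp outside the lower end of Pcdhb6 (37333054 to 37333835, 782 bp). The 3 genes with peaks at both ends were Pcdhb5, Pcdhb18 and Pcdhb20. Pcdhb5 had peaks of 147 and 367 bp, Pcdhb18 of 621 and 976 bp, and Pcdhb20 of 400 and 286 bp, all 6 inside the genes. The genes with none at either end were Pcdhb2, Pcdhb4, Pcdhb9, Pcdhb11, Pcdhb13, Pcdhb14, Pcdhb16, Pcdhb17, Pcdhb19, Pcdhb21 and Pcdhb22. Pcdhb4 was the farthest beta gene from a homecage peak, at 7585 bp from its lower end.

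Beta genes are short enough for the whole gene to be read. A homecage peak touched 8 of the 22 gene bodies. Peaks covered 4.80% of the 75.6 kb of gene bodies, compared with 6.98% of the 181 kb between them. The share of gene bodies touched over all genes was not computed. These covers have no interval, so no difference is read from them. The widest homecage peak of the cluster, 1499 bp (37286676 to 37288174), lay between Pcdhb1 and Pcdhb2 and more than 1 kb from either. Among the beta lower ends, Pcdhb11 was nearest to a learning peak and 5714 bp from a homecage peak.

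Gamma genes fall into A, B and C types by their variable exons. The widest homecage peaks at gamma lower ends were those across the end of Pcdhga9 (37736884 to 37737756, 873 bp), 489 bp outside Pcdhga4 (37684201 to 37684748, 548 bp) and 769 bp outside Pcdhgb1 (37678980 to 37679503, 524 bp). By type, 5 of 6 B-type genes (Pcdhgb1, Pcdhgb4, Pcdhgb5, Pcdhgb6 and Pcdhgb7) had a homecage peak at the lower end (83.3%, 95% interval 35.9 to 99.6%). The exception was Pcdhgb2, with its nearest peak 3604 bp away. Among A-type genes, 3 of 12 did (Pcdhga4, Pcdhga5 and Pcdhga9; 25%, 5.49 to 57.2%). The A and B types are interspersed along the chromosome, and this comparison was made after the peaks were seen, with intervals that overlap. Both intervals include the 38.8% of lower ends of all protein-coding genes with a homecage peak, a share that mixes starts with 3' ends. At Pcdhgb1, Pcdhgb5 and Pcdhga5 the peak lay 769, 543 and 707 bp from the end, so windows of 500 bp would not count them. The median distance to a homecage peak was 332 bp for B-type and 2837.5 bp for A-type genes. Pcdhgb7 had 2 peaks at its lower end, of 221 bp outside and 253 bp inside the gene. The 9 A-type genes without one were Pcdhga1, Pcdhga2, Pcdhga3, Pcdhga6, Pcdhga7, Pcdhga8, Pcdhga10, Pcdhga11 and Pcdhga12. Pcdhga6 and Pcdhga7 shared the longest gamma stretch without a peak, of 20.8 kb.

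The C-type isoforms lie last in the alpha and gamma clusters and are known to be transcribed without the random choice that governs the other isoforms. Of the 5, only Pcdhgc4 had a homecage peak at its lower end (37814354 to 37814865, 512 bp, 214 bp outside the gene). Pcdhgc5 was 1210 bp, Pcdhgc3 3900 bp, Pcdhac2 4552 bp and Pcdhac1 6958 bp from the nearest homecage peak. Nearest learning peaks were 16045 to 328410 bp away, with Pcdhgc5 the closest. The short end of the gamma cluster from Pcdhgc3 to the upper end held 8 homecage peaks in 35.5 kb (226 per Mb, 97.4 to 444) and the cluster's only learning peak. The rest of the gamma cluster held 21 homecage peaks (145 per Mb, 89.9 to 222), an overlapping interval.

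The shared upper end of the gamma genes had a single homecage peak (37842489 to 37842951, 463 bp), outside the genes by 616 to 626 bp. It also lay 650 bp outside the neighbouring gene Diaph1, which encodes an actin-nucleating formin, so it is at the ends of both. With windows of 500 bp it no longer counted, and 6 gamma genes had a peak at an end.

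The position of peaks around the lower end was read next, with no test against other genes. Of the 22 homecage peaks within 1 kb of a member's lower end, 13 lay outside the gene, 4 across the end and 5 inside. In the 1 kb outside the lower end, 17 of 57 members had a homecage peak (29.8%), and in the 1 kb inside it 9 had one (15.8%). Over autosomal protein-coding genes the corresponding shares were 23.3% and 30.2%. By cluster, the 1 kb outside held a peak at 21.4% of alpha, 22.7% of beta and 42.9% of gamma members. Only in gamma was it the single highest bin. Alpha also had 21.4% from 4 to 5 kb inside, and beta had 31.8% from 1 to 2 kb outside and from 3 to 4 kb inside. The share inside members was 10.5% from 1 to 2 kb and 12.3% from 2 to 3 kb, where all autosomal genes had 22.1% and 20.3%. It was as low in 1 bin outside the gene, from 3 to 2 kb before the end, at 10.5% against 18.9%, so low bins were not limited to the inside. In the alpha cluster, peaks covered 2.36% of the first 2.5 kb from each lower end, about the length of a variable exon, and 4.50% of the rest. In the gamma cluster, they covered 6.15% and 6.99%. The alpha value of 2.36% is 825 bp, from peaks at 2 of 14 genes, and these covers have no interval. The profile over all genes mixes lower ends that are starts with lower ends that are 3' ends, so it is not a matched reference, and a peak between close members can count for each of them.

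**Figure D4:**
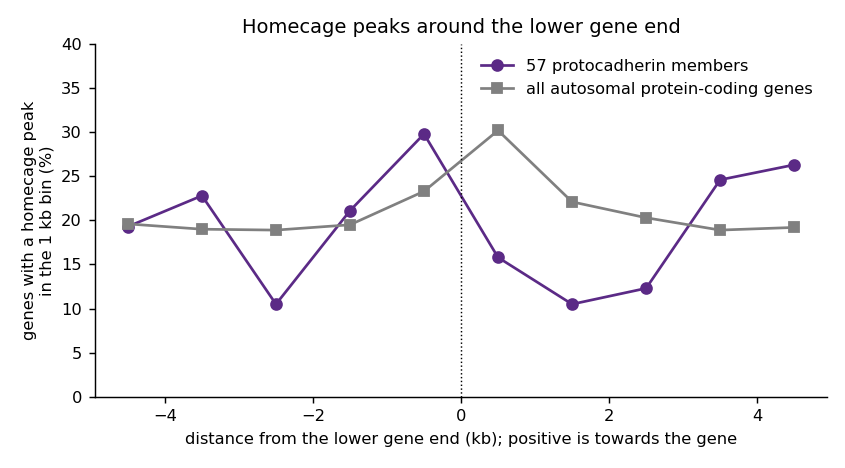
Percent of genes with a homecage peak in each 1 kb bin around the lower gene end, from 5 kb outside to 5 kb towards the gene, for the 57 members and for all autosomal protein-coding genes. The pooled members are highest just outside the end (29.8%) and low over the 3 kb that follow (15.8%, 10.5% and 12.3%) and from 2 to 3 kb outside (10.5%). Of the clusters, only gamma (42.9%) has its single highest bin just outside the end. All genes are highest just inside the end (30.2%).

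Peak density was read over whole clusters. Homecage peaks numbered 104 per Mb in the alpha (27 peaks, 95% interval 68.8 to 152), 152 in the beta (39 peaks, 108 to 208) and 161 in the gamma cluster (29 peaks, 108 to 231). Autosomal tiles of 250 kb had a median of 132 per Mb (25th to 75th percentile 116 to 152), which lies inside the interval of each cluster. The parts between clusters had 118 per Mb between alpha and beta and 157 between beta and gamma, with intervals of 54.1 to 225 and 98.2 to 237 that overlap those of the clusters. Homecage peaks covered 4.21% of the alpha, 6.34% of the beta and 6.75% of the gamma cluster, against 5.52% of the autosomes. Median widths were 383, 349 and 421 bp, near the 351 bp of the whole list. Learning peaks covered 0.207% of the beta and 0.0877% of the gamma cluster, against 0.232% of the autosomes.

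**Figure D5:**
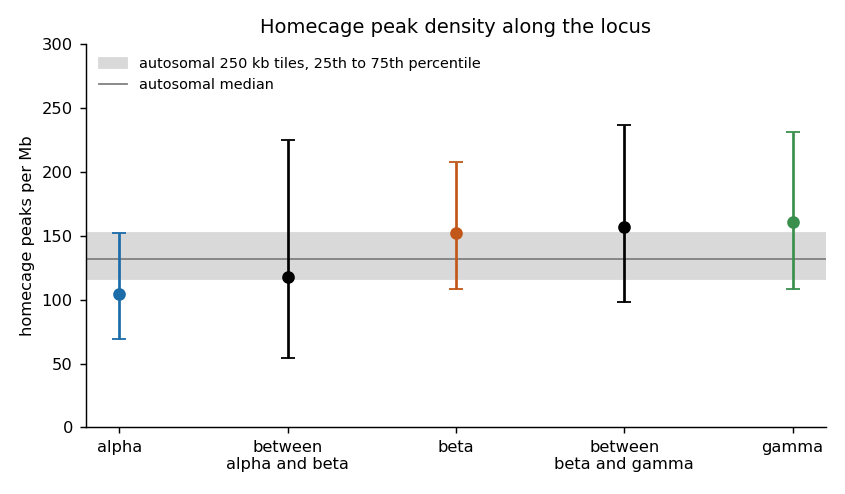
Homecage peaks per Mb in the 3 clusters and in the 2 parts between them, with exact 95% Poisson intervals for counting error; the grey band and line are the quartiles and median over autosomal tiles of 250 kb. All 5 intervals include the autosomal median of 132 per Mb.

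Genes beside the clusters, protocadherins outside them and Hox genes give the surroundings. Taf7, a general transcription factor subunit encoded between the beta and gamma clusters, had a homecage peak across each end (598 and 561 bp) and no learning peak. Within 500 kb below the clusters, 10 of 18 protein-coding genes had a homecage (55.6%) and 2 a learning peak (11.1%) at a gene end. Above the clusters, 9 of 10 had a homecage peak (90%), and 1 a learning peak. That gene was Pcdh1, a nonclustered protocadherin, with a learning peak of 663 bp (chromosome 18, 38211252 to 38211914) inside the gene, 134 bp from its upper end. A homecage peak of 1636 bp overlapped it. Of 12 nonclustered protocadherins, Pcdh1 was the only one with a learning peak (8.33%, 95% interval 0.211 to 38.5%). Homecage peaks were at 6 of the 12 (50%, 21.1 to 78.9%). Both intervals include the shares over all protein-coding genes, 15.6% and 60.9%. The 39 Hox genes, which also lie in clusters, had 0 learning peaks at a gene end and a homecage peak at 11 (28.2%, 15.0 to 44.9%), an interval below the 60.9% of all protein-coding genes. Vomeronasal type 1 receptor genes, another set of tandem copies, had a learning peak at 17 of 230 (7.39%, 4.36 to 11.6%) and a homecage peak at 136 (59.1%, 52.5 to 65.5%).

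Genes that act on or with the clustered protocadherins were read from 2 further lists. Of 15 regulators of isoform choice, 3 of them on chromosome X, 4 had a learning peak (26.7%, 7.79 to 55.1%) and 10 a homecage peak within 1 kb of an end. Ctcf, the insulator protein that binds at protocadherin promoters, had a learning peak of 1205 bp (chromosome 8, 105636561 to 105637765) inside the gene, 87 bp from its lower end. Smchd1, a chromatin repressor of the clusters, had one of 883 bp across its upper end (chromosome 17, 71474980 to 71475862). Rest, a repressor of neuronal genes, and Zfp143, a factor found with CTCF at chromatin loops, had learning peaks of 342 and 307 bp. A homecage peak overlapped each of these 4. Of 12 proteins that clustered protocadherins act with, 5 had a learning peak (41.7%, 15.2 to 72.3%) and 11 a homecage peak. Nckap1, Cyfip1 and Abi1, subunits of the WAVE complex that drives actin branching, had learning peaks of 656, 146 and 456 bp. Rac1, the GTPase that activates this complex, had one of 409 bp, and Prkca, a protein kinase C, one of 426 bp. Homecage peaks overlapped all of these but that of Cyfip1. In the learning list, the intervals of both lists of genes include the 15.6% of all protein-coding genes. In the homecage list, the interval of the regulators (66.7%, 38.4 to 88.2%) includes the 60.9% of all protein-coding genes. That of the interacting proteins (91.7%, 61.5 to 99.8%) lies just above it. All 12 of these genes are autosomal, however, and the 60.9% includes genes on X and Y, where few homecage peaks lie. The share over autosomal genes was not computed. On chromosome 18 it was 64.6%, inside the interval of the interacting proteins, so no excess is read.

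The lists themselves differ in length, with 16002 learning and 331236 homecage peaks on chromosomes 1 to 19, X and Y, a ratio of 20.7. The cause of that difference was not tested, and it bears on every comparison between the lists above. Peaks do not measure transcription, so tissue markers could be read only by position. A homecage peak was at a gene end of 4 of 4 excitatory neuron, 2 of 3 interneuron and 3 of 3 astrocyte markers. The same held for 2 of 3 oligodendrocyte and 3 of 3 microglia markers. A learning peak was at a gene end of 1 of these 16, Gfap. The counting intervals are wide, such as 39.8 to 100% for the excitatory neuron markers in the homecage list. For every marker group they include the share over all protein-coding genes, 60.9% in the homecage and 15.6% in the learning list. No excess at markers is therefore read from these counts.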

How the data were processed

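Pan-Kcr ChIP-seq peak lists of 2 of the series' 12 libraries were used. The other libraries were not analysed here. The authors called broad peaks with a p threshold of 0.01, per the peak names in the files, and deposited 1 list per library. Trimmomatic, BWA and MACS2 and the build mm10 are named, without roles or versions, per the submitters' processing notes. Whether an input library served as control is not given in the sources used here. The deposited files hold the chromosome, start, end and name of each peak, in bp, and no strength. Starts were converted to 1-based positions. Gene positions came from a RefSeq table of GRCm38.p6, which has no strand or exons. Protein-coding models Gm37013, Gm38666 and Gm38667, which run from the alpha to the gamma cluster, and the pseudogene Pcdhgb8 are not members. Peaks on chromosomes 1 to 19, X and Y were counted. Cluster limits are the lowest and highest gene ends, and a shared peak was counted once. Shares have exact Clopper-Pearson and densities exact Poisson intervals.

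Named genes were chosen by rule. These are members with a learning peak at an unshared end, the 3 with the widest homecage peak at such an end per cluster, members without a peak, the shared ends, the C-type isoforms, and comparison genes with a learning peak. Others were named after their values were seen. Members and lists were chosen with earlier results of these data known. The window functions recovered 200 of 200 planted peaks in simulated lists, with 0 false hits. Computations used scipy 1.17.1, pandas 2.3.3 and numpy 2.4.6 under Python 3.11.15, and plots matplotlib 3.10.9. No sequence is printed.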

Additional observations from a re-analysis of the deposited data

How the results depend on the processing

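No paired analysis was possible because there was 1 antibody library per condition, and no replicate could be left out. Among 110 recomputed values, 76 were inside the main counting interval (within 1.5 times, for gene counts and cover) and 34 moved. The cause was not tested for the values that moved, except that fewer peaks or narrower windows give lower counts by construction. Many of the 76 are learning values of 0, which narrower windows or fewer peaks cannot change. The number 76 is therefore not a measure of stability. Windows of 500 bp left 2 alpha, 6 beta and 6 gamma genes with a homecage peak, and 18.2% of beta ends (all protein-coding genes 48.8%, their ends 28.3%). Windows of 3 kb gave 17 of 22 beta genes (all protein-coding genes 81.3%) and 65.9% of beta ends (all protein-coding ends 63.6%) in the homecage list. In the learning list they gave 1 beta gene, where 20.1% of all protein-coding genes had a peak. Unshared ends alone left 9 gamma genes, and counting the shared end once per gene gave 71.4% of gamma ends. With peaks of at least 300 bp, homecage densities were 89.7 per Mb in the beta and 94.4 in the gamma cluster. Beta ends were then at 18.2% (all protein-coding ends 27.5%). With peaks of at least 500 bp, homecage peaks were at 0% of alpha, 11.4% of beta and 18.2% of gamma ends (all protein-coding ends 15.5%), and at 0 alpha, 4 beta and 4 gamma genes (14.0% of members, 27.9% of all genes). Homecage densities were then 23.2, 35.1 and 61.1 per Mb and cover 1.64, 2.89 and 3.96%. A shared end without a peak counts against many nested genes at once, so the gene counts at these settings are not matched to those of all genes. The widest homecage peaks, as many as in the learning list, were at 0% of alpha, 4.55% of beta and 0% of gamma ends (all protein-coding ends 4.99%), with 3.87, 11.7 and 5.55 peaks per Mb. The gamma learning peak was lost with minimum widths of 300 and 500 bp, leaving a density of 0 per Mb and a cover of 0%. Of the 2 learning peaks in the clusters, 0 overlapped a homecage peak and 1 had one within 1 kb.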

Other observations

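Pcdhgb8, the B-type gamma gene that is annotated as a transcribed pseudogene (chromosome 18, 37761801 to 37840489), had 3 homecage peaks within 1 kb of its ends and no learning peak. One of 957 bp (37762556 to 37763512) lay 755 bp inside its lower end and was the widest homecage peak within the gamma cluster. The others, of 306 bp (37839560 to 37839865) and 147 bp (37840433 to 37840579), lay near its upper end, inside the protein-coding gamma genes.

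Between the alpha and beta clusters, 76.1 kb held 9 homecage peaks of 227 to 570 bp and 0 learning peaks. Between the beta and gamma clusters, 22 homecage peaks reached 1266 bp in width.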
